A study of Mus musculus with 25 samples.

Results

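The CPEB proteins are a family of 4 RNA-binding proteins, and all 4 genes, Cpeb1, Cpeb2, Cpeb3 and Cpeb4, were measured in the CA1 field of the hippocampus. They were chosen by name with results of the comparison of handled and non-handled mice already known, and are described through the 11 probe sets, of 45101 on the array, that the platform's annotation names for 1 of these genes alone. Cpeb1 has 1 probe set, Cpeb2 has 3, Cpeb3 has 4 and Cpeb4 has 3. The 4 genes stand among 18193 genes with a probe set of their own.

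All mice were female and of the inbred strain Balb c/J. The 11 handled mice were separated from their mothers as pups for 15 min each morning on postnatal days 1 to 14, and the 14 non-handled mice were left undisturbed. All were tested for behavior at 8 weeks of age, and CA1 was dissected 2 weeks later. RNA was amplified in a double round, and each mouse has 1 array of the Affymetrix Mouse 430_2.0 type. RNA was extracted with RNA/DNA columns from 7 handled and 10 non-handled mice and with Trizol from 4 handled and 4 non-handled mice. The labels give the extraction by positions in the list of samples. The litter of each mouse was not known here and each p-value treats mice as independent. CA1 is a mix of cells, and fewer cells of a type and less RNA per cell cannot be told apart in these values.

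CPEB proteins bind short uridine-rich motifs in the 3′ ends of mRNAs, among them the cytoplasmic polyadenylation elements. They hold translation back or release it, in part through the length of the poly(A) tail. Cpeb1 is the founding member, known from oocyte maturation and from the local translation of mRNAs near synapses. Cpeb2, Cpeb3 and Cpeb4 form a closer subgroup. In neurons, Cpeb3 is known as a repressor of the mRNAs of AMPA receptor subunits, and Cpeb4 has been linked to neuronal survival.

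The annotation's promoter windows of Cpeb1 and Cpeb4 are shown because both bright Cpeb4 probe sets correlated with Cpeb1 from mouse to mouse, as given with the correlations. Each window spans 300 bases around an annotated transcript start in RefSeq (build GRCm38.p6), and windows were found for 3 of the 4 genes. Capitals mark matches, on either strand, to TGACG (the cAMP response element half-site), CACGTG (an E-box), GGGCGG (a GC box), TATAAA (the TATA box) and CCAAT (a box bound by NF-Y). These motifs were chosen after both windows had been seen.
Cpeb1, minus strand, chr7:81454709-81455008: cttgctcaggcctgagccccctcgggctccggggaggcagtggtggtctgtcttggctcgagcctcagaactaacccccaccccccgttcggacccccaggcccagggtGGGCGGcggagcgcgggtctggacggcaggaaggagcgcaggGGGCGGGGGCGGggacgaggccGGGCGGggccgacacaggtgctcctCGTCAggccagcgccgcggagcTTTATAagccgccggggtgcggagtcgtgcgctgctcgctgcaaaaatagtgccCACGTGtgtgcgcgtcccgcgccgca
Cpeb4, plus strand, chr11:31870690-31870989: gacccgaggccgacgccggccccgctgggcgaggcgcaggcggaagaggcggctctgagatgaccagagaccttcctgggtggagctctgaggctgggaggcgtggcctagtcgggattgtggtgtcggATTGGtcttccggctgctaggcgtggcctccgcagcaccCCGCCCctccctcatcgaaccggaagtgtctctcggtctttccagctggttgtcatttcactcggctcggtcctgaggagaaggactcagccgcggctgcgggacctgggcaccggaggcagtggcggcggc
Both windows were rich in G and C, with 72.7% in Cpeb1 and 68.3% in Cpeb4, against a median of 52.7% over 32851 windows. Cpeb1 held 33 CpG dinucleotides and Cpeb4 held 27, against a median of 7. The Cpeb1 window held 4 GC boxes and the Cpeb4 window 1, and 35.7% of all windows held at least 1. Of these 2 windows only that of Cpeb1 held the cAMP response element half-site, the E-box and the TATA box, which 20.8%, 7.15% and 13.6% of all windows held. The Cpeb4 window held a CCAAT match, found in 37.4% of all windows. These matches are a description of letters.

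The signal is the MAS 5.0 intensity, on a linear scale, and the group differences compare each probe set with itself across mice. Signal was also ranked over probe sets, summed over markers and set in ratios between probe sets of the same gene. Mean signal placed the probe sets between percentile 34.6 of all tested probe sets, for Cpeb4 1449931_at, and percentile 97.5, for Cpeb4 1420618_at. Only Cpeb4 1449931_at lay below the middle of the array. All 5 markers of CA1 pyramidal cells were measured, at percentiles from 80.3 to 98.97. The arrays had mean signals of 737 to 910. The array of mouse NH162, non-handled and extracted with columns, had a log2 ratio of 3′ to 5′ Actb signal of 3.24, against a mean of 1.93 in its group. Results that rest on this array are given with and without it.

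**Figure D1:**
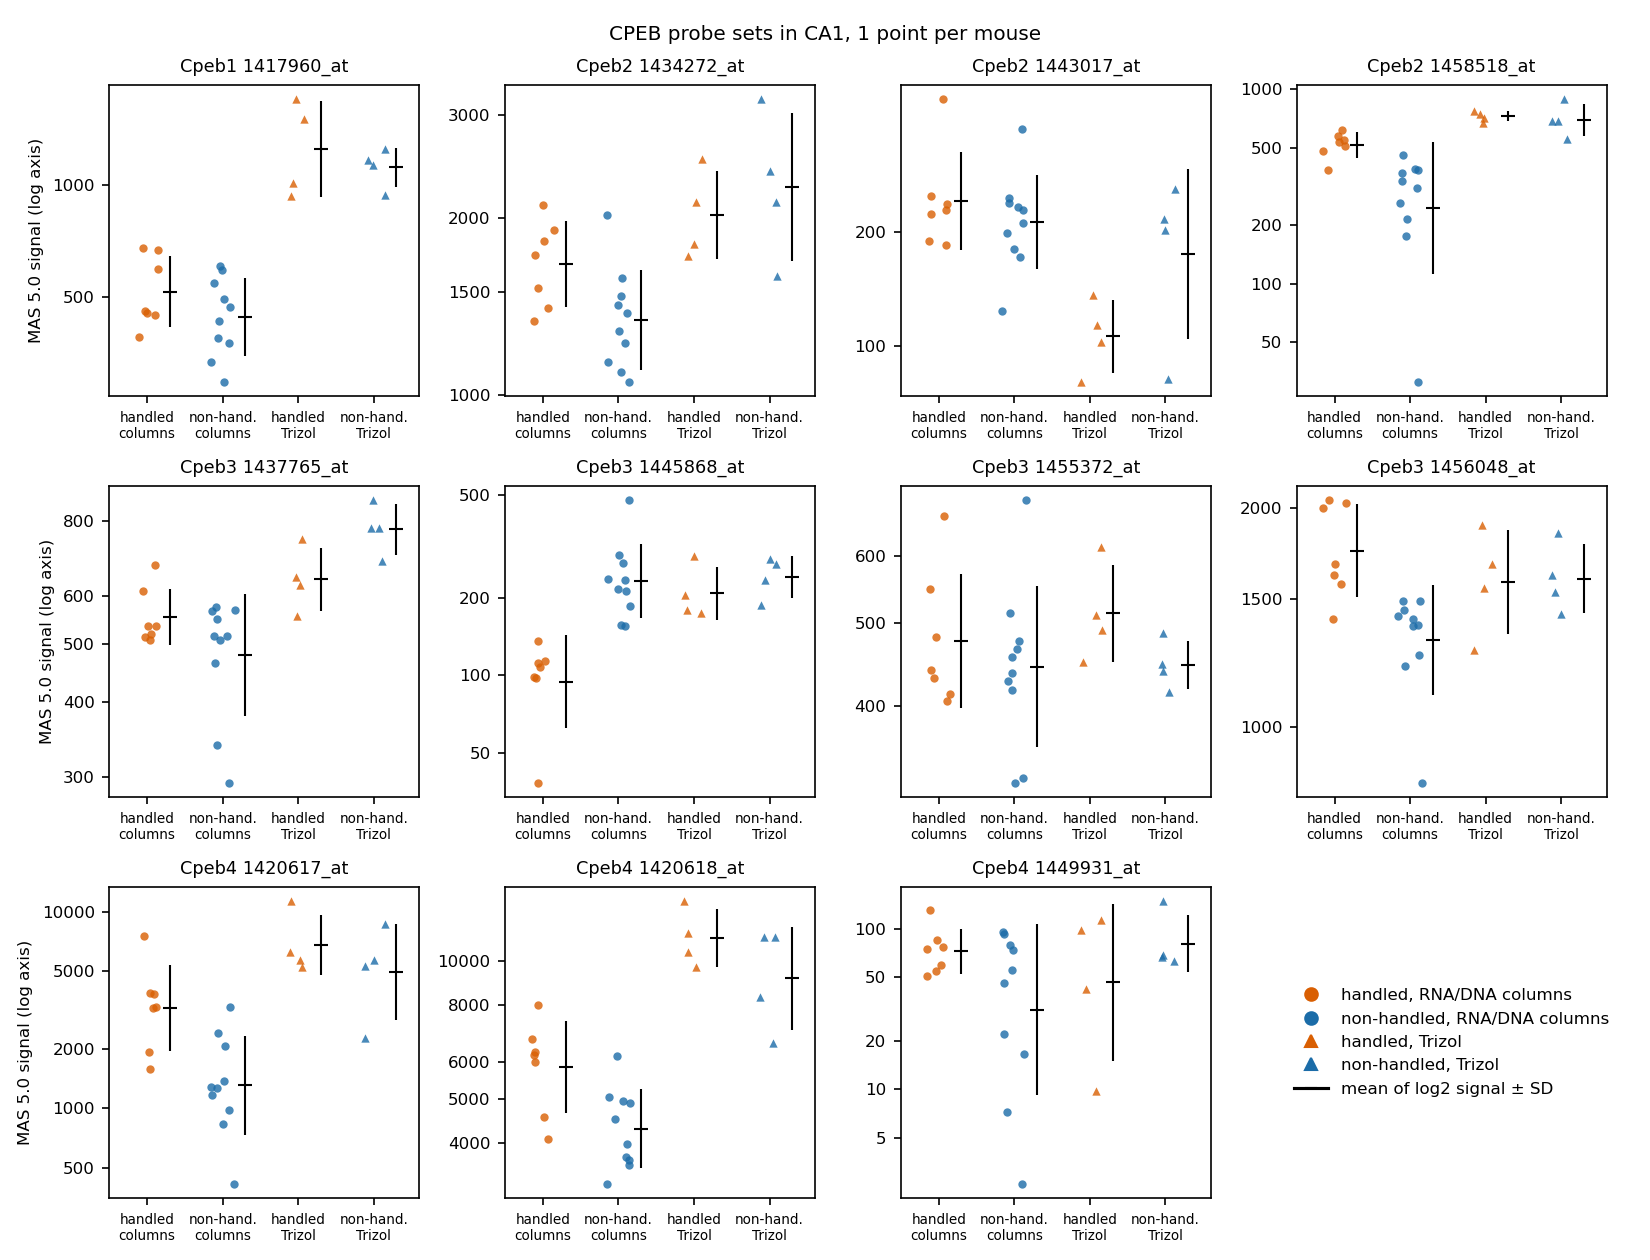
Signal of the 11 CPEB probe sets in each mouse, in the 4 groups of handling and extraction, on log axes. Points are mice, and the bars give the mean of log2 signal ± SD. Cpeb1 is lower in every mouse of the column groups (highest 677) than in every mouse of the Trizol groups (lowest 933).

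The handling contrast was the basis on which these genes were chosen, so its values are a description. In the fit with handling and extraction as terms, 3 of the 11 probe sets passed an adjusted p under 0.05, 2 of them higher and 1 lower in handled mice. Among all 45037 probe sets 11.5% passed, with 3.58% higher and 7.93% lower. In the upper 50% of the array by mean signal, 22519 bright probe sets with 10 of the 11 among them, 16% passed in the same fit, with 6.95% higher and 9.09% lower. Because the members were chosen from this contrast, nothing is read from that difference. The median difference of the members was 0.21 on the log2 scale, that of the bright probe sets was -0.016, and that of all probe sets was -0.15, which quantile normalization and scaling of the arrays moved to 0.02 and 0.03.

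Measures of the whole array also moved with handling. The variance of natural-log signal averaged 4.01 in handled and 3.42 in non-handled mice with columns, and 3.42 in handled and 3.08 in non-handled mice with Trizol. Once the 4 group means were removed, none of the 11 probe sets correlated with this variance at an adjusted p under 0.05. The strongest were Cpeb3 1445868_at, with r = -0.45 (permutation p = 0.0258, adjusted p = 0.143), and Cpeb1, with r = 0.43 (permutation p = 0.0604, adjusted p = 0.211). Without NH162 these were -0.49 and 0.44. Of 32 measured markers of 8 other cell types, 3 rose and 3 fell in handled mice. Gad1 and Gad2, of interneurons, and Aqp4, of astrocytes, rose, and Pvalb, of interneurons, Cldn5, of endothelium, and Folr1, of choroid plexus, fell. The summed signal of 6 interneuron markers was 13606 to 20228 in handled and 12061 to 17120 in non-handled mice, and the median difference of the list was -0.072. The lowest list medians were those of endothelium (-0.49) and choroid plexus (-0.41). With Trizol the endothelial sum was 1083 to 1150 in handled and 1346 to 2546 in non-handled mice. The choroid plexus sum with Trizol was 224 to 364 in handled and 437 to 2958 in non-handled mice. Neither overlaps, but these are 4 mice against 4, and sums of several marker lists were compared. No share over all probe sets is given for such a gap, so nothing is read from it. With columns both sums overlap. The part of these markers in the handling differences was not tested.

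Cpeb4 held the 2 higher probe sets. With columns, Cpeb4 1420617_at had a signal of 1594 at the lowest, 3276 at the median and 7552 at the highest in handled mice, against 412, 1281 and 3277 in non-handled mice. With Trizol, handled mice had 11395, 5237, 5714 and 6275, and non-handled mice had 8715, 5319, 5669 and 2289. The ranges overlap under both extractions. Its difference, handled minus non-handled, was 1.03 on the log2 scale (standard error 0.26), which is 2.04-fold.

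Cpeb4 1420618_at, the brightest of the members, had a smaller difference of 0.40 (standard error 0.11), or 1.32-fold, and did not pass after quantile normalization (0.35) or scaling of the arrays (0.24). With columns it ranged over 4076, 6229 and 8006 at the lowest, median and highest in handled mice, against 3258, 4249 and 6208 in non-handled mice. With Trizol the handled mice had 13505, 9687, 11512 and 10428, and the non-handled mice had 11255, 8317, 11283 and 6624. The highest Trizol value was in a handled mouse and the lowest in a non-handled mouse. The third Cpeb4 probe set, 1449931_at, is dim and scattered: its signal ran from 2.56 to 151 over all mice, and its difference of 0.55 had a standard error of 0.52.

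Cpeb3 held the lower probe set. With columns, Cpeb3 1445868_at had 38.3 at the lowest, 107.9 at the median and 135 at the highest in handled mice, against 155.7, 225 and 478 in non-handled mice. These 2 ranges do not meet, which held for 1.13% of all probe sets in that direction. With Trizol the handled mice had 179, 205, 289 and 175, and the non-handled mice had 234, 269, 282 and 186, and the ranges overlap. The difference in the fit over all mice was -0.94 (standard error 0.21), or 0.52-fold. The other 3 probe sets of Cpeb3 lay between 0.05 and 0.27 in the fit over all mice. With Trizol alone, 1437765_at was at -0.28 and 1456048_at at -0.015, beside -0.21 for 1445868_at, and without NH165 the fit put 1437765_at at -0.0062.

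**Figure D2:**
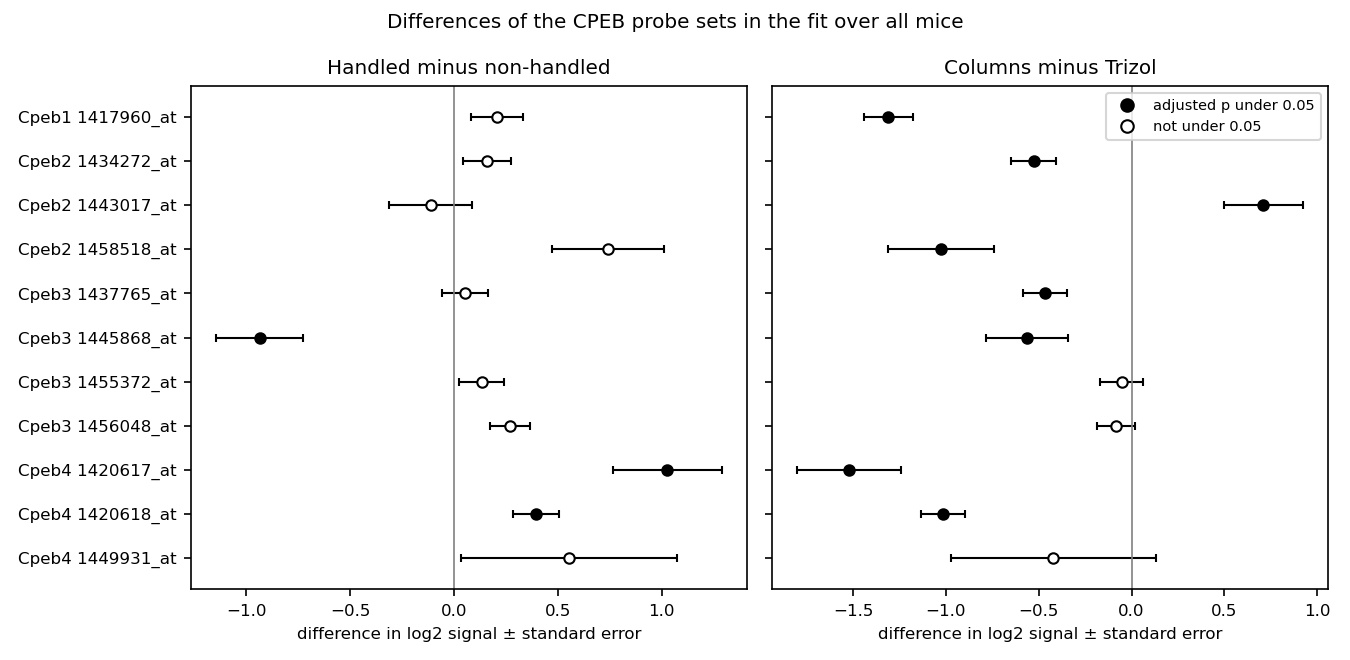
Differences of the 11 CPEB probe sets in log2 signal, from the fit over all mice: handled minus non-handled on the left, columns minus Trizol on the right, with bars of 1 standard error. Filled points passed an adjusted p under 0.05. Cpeb4 1420617_at is at 1.03 on the left and -1.52 on the right, and Cpeb3 1445868_at is at -0.94 on the left.

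The remaining probe sets did not pass in the handling contrast. Cpeb1 1417960_at was 0.21 (standard error 0.13). Cpeb2 1434272_at was 0.16 (0.11), 1443017_at was -0.11 (0.20) and 1458518_at was 0.74 (0.27), each with its standard error. For Cpeb2 1458518_at, mouse NH162 had a signal of 31.2 and no other non-handled mouse of the column group was below 175. Without that mouse its difference was 0.51, and 4 CPEB probe sets passed. Leaving out any other single mouse gave 3 or 4.

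The difference of these genes between the extraction methods did not choose the members, and it was tested. Between columns and Trizol, 8 of the 11 probe sets passed an adjusted p under 0.05 in limma, 7 lower and 1 higher with columns. Of all probe sets 39.8% passed, 23.3% lower and 16.5% higher. Of the bright probe sets, among them all 8 members that passed, 58.7% passed, 27.8% lower and 30.9% higher. The median difference of the members was -0.53 on the log2 scale, against 0.023 for the bright probe sets and -0.16 for all probe sets. These are the same mice as in the handling contrast, and the fit holds handling constant. Each mouse was extracted with 1 method only, so the method and other differences between the sets of mice cannot be told apart.

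Cpeb1 1417960_at had the smallest p of the 11. It had a signal of 294 at the lowest, 457 at the median and 677 at the highest in the 17 mice extracted with columns, and 933, 1149 and 1707 in the 8 mice extracted with Trizol. The 2 sets of mice do not overlap, which held in that direction for 8.15% of all probe sets. Its difference, columns minus Trizol, was -1.31 (standard error 0.13, adjusted p = 5.65e-10 in limma), so signal was 2.48-fold higher in the mice extracted with Trizol.

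Both bright Cpeb4 probe sets fell as well. Cpeb4 1420617_at had 412, 1945 and 7552 at the lowest, median and highest with columns, against 2289, 5691 and 11395 with Trizol. Its difference was -1.52 (standard error 0.28, adjusted p = 2.77e-05 in limma). Cpeb4 1420618_at had 3258, 4902 and 8006 with columns, against 6624, 10842 and 13505 with Trizol, a difference of -1.01 (standard error 0.12, adjusted p = 9.95e-09 in limma). Cpeb4 1449931_at, the dim probe set, had a difference of -0.42 (standard error 0.55, adjusted p = 0.601 in limma) and did not pass.

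Cpeb2 split between its probe sets. Cpeb2 1434272_at fell by 0.53 (standard error 0.12, adjusted p = 0.000525 in limma) and 1458518_at fell by 1.03 (standard error 0.29, adjusted p = 0.00367). Without NH162 the difference of 1458518_at was -0.84. Cpeb2 1443017_at rose, by 0.71 (standard error 0.21, adjusted p = 0.00669), with 124, 228 and 451 at the lowest, median and highest with columns and 80.1, 125 and 259 with Trizol. Cpeb3 1437765_at fell by 0.47 (standard error 0.12, adjusted p = 0.00149) and Cpeb3 1445868_at by 0.56 (standard error 0.22, adjusted p = 0.0419). Within handled and within non-handled mice, 1445868_at was at -1.13 and -0.054, and 1443017_at at 1.19 and 0.29. The larger difference was in non-handled mice for 1434272_at (-0.28 and -0.75), 1458518_at (-0.49 and -1.50) and 1437765_at (-0.21 and -0.70). The call of Cpeb3 1445868_at was lost after quantile normalization (-0.12), after scaling (-0.26) and on leaving out any of 12 single mice. With the 3′ to 5′ ratios as covariates, Cpeb2 1443017_at (0.43) and Cpeb3 1437765_at (-0.32) did not pass. Cpeb3 1455372_at, at -0.05 (95% interval -0.29 to 0.18), and 1456048_at, at -0.08 (-0.29 to 0.13), did not pass.

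Whether 2 probe sets of 1 gene differ from each other in the extraction contrast was tested on the ratio of their signals, with exact reassignments of extraction within handling, a test added after the data were seen. Of the 12 pairs within a gene, 4 passed an adjusted p under 0.05. Pairs of probe sets of other genes were not put to this test, so the count is not read as a trait of these genes. For Cpeb2, 1443017_at over 1458518_at differed by 1.74 (standard error 0.32, exact adjusted p = 3.63e-05), and 1434272_at over 1443017_at by -1.24 (standard error 0.25, exact adjusted p = 0.000418). For Cpeb3, 1437765_at over 1455372_at differed by -0.41 (exact adjusted p = 0.0341), and over 1456048_at by -0.38 (exact adjusted p = 0.0319). The bright Cpeb4 pair differed by -0.51 (standard error 0.26, exact adjusted p = 0.116).

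Other measurements moved with extraction. Of 32 measured markers of 8 other cell types, 16 were higher and 2 lower with columns, and 14 did not pass. Of all probe sets 39.8% passed in this contrast, and of the bright probe sets 58.7%. The list of dentate granule cells had a median difference of -0.32. The summed signal of 4 microglia markers was 14039 to 25404 with columns and 6019 to 9722 with Trizol, and that of 4 astrocyte markers was 12409 to 22862 with columns and 7906 to 11430 with Trizol. The sum of the 5 CA1 markers was 16022 to 33211 with columns and 12926 to 23021 with Trizol. The mean log2 ratio of 3′ to 5′ Gapdh signal was 1.29 with columns and 1.71 with Trizol. The part of these in the CPEB differences was not tested.

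Whether the handling difference itself differs between the extractions was tested with an interaction term. None of the 11 probe sets passed an adjusted p under 0.05 in limma, and 0.0511% of all probe sets did. At an unadjusted p under 0.05, 5 of the 11 passed, and 7.47% of all. Handled minus non-handled was 1.30 with columns and 0.46 with Trizol for Cpeb4 1420617_at (interaction adjusted p = 0.762 in limma), and -1.29 with columns and -0.21 with Trizol for Cpeb3 1445868_at (adjusted p = 0.577). For Cpeb2 1434272_at it was 0.32 with columns and -0.16 with Trizol (adjusted p = 0.663 in limma).

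Agreement from mouse to mouse was measured as the correlation of log2 signal after the means of the 4 groups were removed, over 25 mice and all 55 pairs of CPEB probe sets, with 100000 permutations within the groups. Of the 12 pairs within a gene, 1 passed after adjustment over the 55 pairs, and the median r was 0.06. Of the 43 pairs between different genes, 8 passed, and the median r was 0.14. Those 8 had r from 0.51 to 0.86 within columns, -0.29 to 0.84 within Trizol and 0.31 to 0.69 without the 2 mice farthest from the median. Without NH162 the counts were 1 and 6. Pairs of other probe sets on the array were not tested in this way. The counts are therefore not read as particular to the CPEB genes.

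The pair that passed within a gene was Cpeb4 1420617_at and 1420618_at, which have r = 0.69 and rho = 0.78 (permutation p = 0.000470 for r, adjusted p = 0.00431, and adjusted p = 0.00330 for rho). Within columns r was 0.62 and within Trizol it was 0.89. Without the 2 mice farthest from the median, NH155 and NH162, r was 0.91, and without NH162 alone it was 0.89 (permutation adjusted p = 0.000550). The dim probe set 1449931_at gave r = 0.25 with 1420617_at and 0.22 with 1420618_at, and neither passed. For Cpeb2 and Cpeb3 the pairs within a gene had r between -0.32 and 0.32, and none passed. Without NH162 these pairs lay between -0.35 and 0.35, and again none passed. The signs at both ends turned without it. Cpeb2 1434272_at and 1458518_at went from -0.31 to 0.29, and 1443017_at and 1458518_at from 0.32 to -0.07. Cpeb3 1455372_at and 1456048_at went from -0.32 to 0.09.

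**Figure D3:**
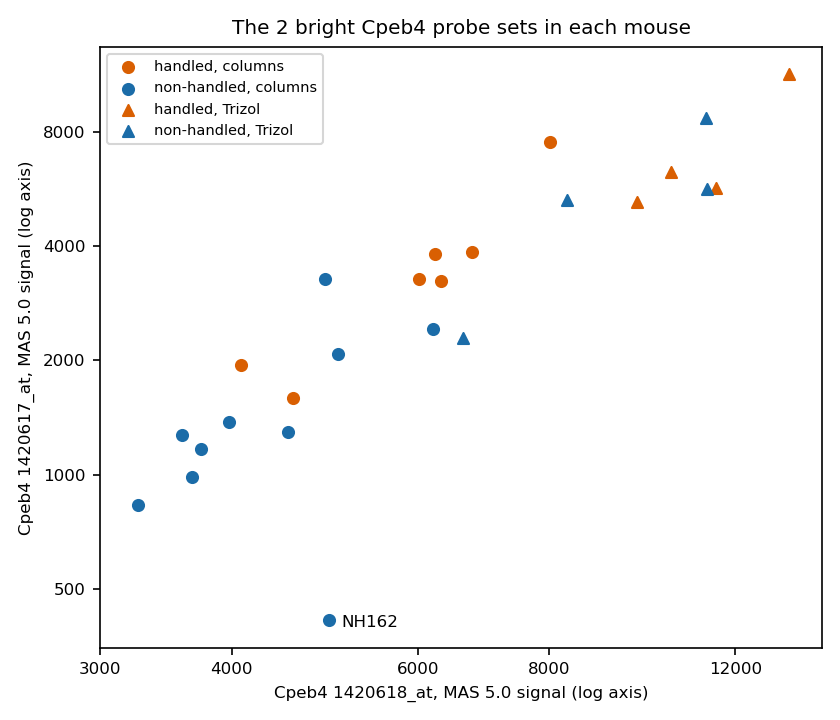
Signal of Cpeb4 1420617_at against Cpeb4 1420618_at in each mouse, on log axes, with handled mice in orange and non-handled mice in blue. NH162 has 412 on the vertical axis and 4947 on the horizontal axis, and lies below the line of the other mice.

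Cpeb1 moved with Cpeb4 from mouse to mouse. Its correlation with Cpeb4 1420617_at was r = 0.65 (rho 0.65, permutation adjusted p = 0.00431 for r) and with 1420618_at r = 0.53 (rho 0.56, permutation adjusted p = 0.0430). Without NH162 these were 0.57 and 0.65 (permutation adjusted p = 0.0339 and 0.00811). Cpeb1 and Cpeb3 1456048_at had r = 0.67 (rho 0.63, permutation adjusted p = 0.00558), and 0.59 without NH162 (permutation adjusted p = 0.0535).

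Cpeb2 1434272_at correlated with Cpeb4 1420618_at at r = 0.71 (rho 0.74, permutation adjusted p = 0.00385) and with Cpeb3 1455372_at at r = 0.72 (rho 0.73, permutation adjusted p = 0.00165). Cpeb3 1456048_at and Cpeb4 1420617_at had r = 0.72 (rho 0.66, permutation adjusted p = 0.00293). Cpeb2 1458518_at and Cpeb4 1420617_at had r = 0.67 (rho 0.58, permutation adjusted p = 0.00293). The pair of Cpeb2 1458518_at and Cpeb3 1456048_at, with r = 0.70 and rho 0.37 (permutation adjusted p = 0.0276 for r), rests on NH162 and fell to r = 0.30 without it (permutation adjusted p = 0.250).

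**Figure D4:**
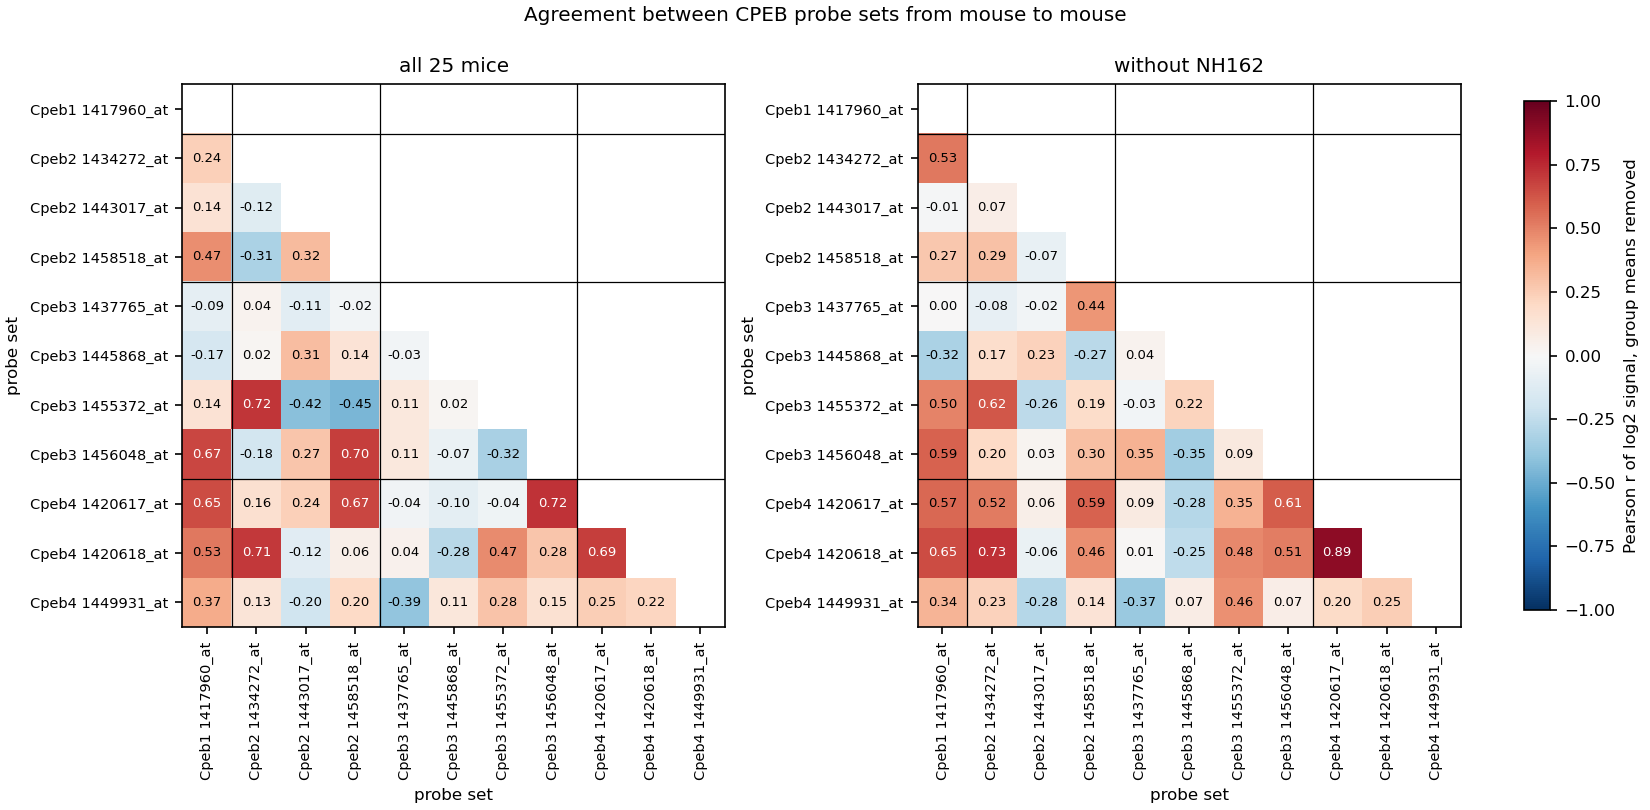
Pearson r between each pair of CPEB probe sets over log2 signal with the 4 group means removed, over all 25 mice on the left and without NH162 on the right. Black lines separate the genes. Cpeb4 1420617_at and 1420618_at are at 0.69 on the left and 0.89 on the right.

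Relations to measures of the whole array were tested in 33 combinations of the 11 probe sets with the variance of natural-log signal and with the 3′ to 5′ ratios of Gapdh and Actb. One passed: Cpeb3 1456048_at fell as the Actb ratio rose (r = -0.77, permutation adjusted p = 0.0221, and rho -0.58, adjusted p = 0.0660). Within columns r was -0.83 and within Trizol -0.50. Without NH162 it was -0.53 (permutation adjusted p = 0.160), and no relation passed.

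The genes whose pattern over the 25 mice lay closest to each CPEB gene were ranked by the same correlation among 19569 bright probe sets that name 1 gene, with no test. Cpeb4 1420618_at was nearest to Dmxl2, a regulator of the vesicular proton pump (r = 0.89, and 0.90 without NH162), Golph3, a Golgi protein (0.85 and 0.90), and Celf2, an RNA-binding splicing regulator (0.84 and 0.87). Cpeb1 was nearest to Pip4p2 (0.85, and 0.81 without NH162), Rabgef1 (0.82 and 0.78) and Cnst (0.82 and 0.78). Cpeb2 1434272_at was nearest to Kif5b, a kinesin motor (0.82, and 0.84 without NH162), Nnt (0.82 and 0.78) and Npat (0.80 and 0.90). Cpeb3 1456048_at was nearest to Pafah1b2 (0.90, and 0.81 without NH162), Usp7 (0.89 and 0.83) and Slc30a5 (0.88 and 0.78). The order changed without NH162: Npat came first for Cpeb2 and Usp7 for Cpeb3, while Nnt took rank 13 for Cpeb2 and Celf2 rank 10 for Cpeb4.

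The proteins that work with CPEB were followed as a list of the polyadenylation machinery and its translation partners, with 31 of 36 listed genes measured here. Each gene of this list and of the targets is given by its brightest probe set, and its other probe sets are not described. Of these 31, 4 rose and 1 fell in handled mice and 26 did not pass. Beside the 16% of the bright probe sets that passed, and 11.5% of all probe sets, the count of partners called is near the background. The median difference was 0.013, against -0.016 for the bright probe sets and -0.15 for all probe sets. The 5 calls became 3 after quantile normalization and 2 after scaling of the arrays. Cpsf4, a subunit of the cleavage and polyadenylation complex, had 340, 425 and 660.5 at the lowest, median and highest in handled mice, against 495, 742 and 949 in non-handled mice. It fell by 0.65 (standard error 0.11, adjusted p = 0.000223 in limma).

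The 4 that rose were led by Lsm14a, a protein of P-bodies, by 0.64 (adjusted p = 0.0121 in limma), and Tob2, an antiproliferative protein that binds the CCR4-NOT deadenylase, by 0.60 (adjusted p = 0.0291). Eif4e, the cap-binding factor that starts translation, rose by 0.24 (adjusted p = 0.0369), with 3880, 5192 and 5572 in handled mice against 3195, 4377 and 5609 in non-handled mice at the lowest, median and highest. Fip1l1, another subunit of the cleavage and polyadenylation complex, rose by 0.25 (adjusted p = 0.0402). The call of Tob2 was lost on leaving out any of 4 single mice. The call of Eif4e was lost on leaving out any of 7 single mice and that of Fip1l1 on leaving out any of 13, and both these calls, of Eif4e and Fip1l1, were lost under quantile normalization (0.20 and 0.21).

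The known targets of CPEB proteins were followed as a second list, with 12 of 15 measured here. Of these 12, 3 rose and 4 fell in handled mice, and 5 did not pass, where 16% of the bright probe sets and 11.5% of all probe sets passed. Both lists were drawn up with earlier results of these data known. Nothing is therefore read from that difference, and the p-values of listed genes in this contrast are a description. The median difference was -0.077. The 7 calls became 4 after quantile normalization and 3 after scaling of the arrays. Gria2, a subunit of AMPA receptors, rose by 0.35 (standard error 0.073, adjusted p = 0.00266 in limma), with 11096, 13529 and 16444 in handled mice against 7223, 10800 and 14506 in non-handled mice at the lowest, median and highest. Hif1a, a hypoxia factor, rose by 0.61 (adjusted p = 0.00142) and Map2, a dendritic microtubule protein, by 0.23 (adjusted p = 0.0276), which turned to -0.041 after scaling. Camk2a, a kinase of synaptic plasticity, fell by 0.24 (adjusted p = 0.0494), a call that was lost on leaving out any of 18 single mice. Dlg4, a postsynaptic scaffold, Egfr, a growth factor receptor, and Vegfa, an angiogenic factor, fell by 0.52, 0.61 and 0.48 (adjusted p = 0.0279, 0.00731 and 0.0251). The call of Dlg4 was lost on leaving out any of 4 single mice, and those of Vegfa and Map2 on leaving out 1.

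**Figure D5:**
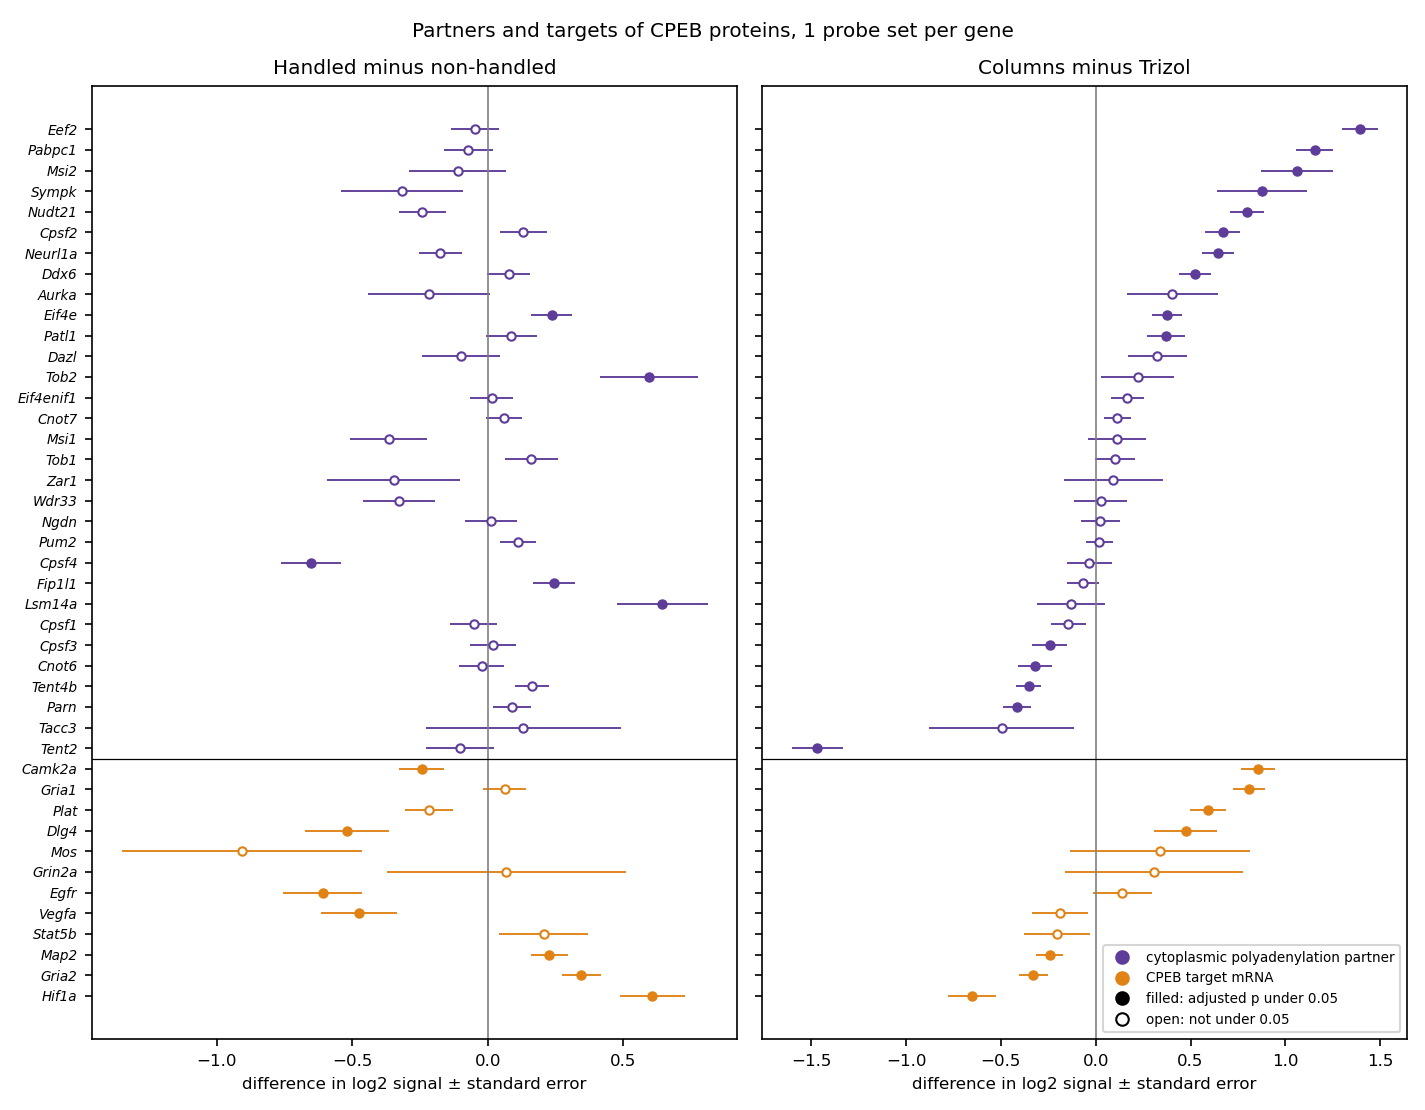
Differences in log2 signal ± standard error of the 31 partner genes (purple) and 12 target genes (orange), 1 probe set per gene: handled minus non-handled on the left and columns minus Trizol on the right. Filled points passed an adjusted p under 0.05. Cpsf4 is at -0.65 on the left, and Eef2 at 1.39 and Tent2 at -1.47 on the right.

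Between columns and Trizol, 10 of the 31 partner genes rose and 5 fell, and 16 did not pass. This count lies between the 39.8% of all probe sets and the 58.7% of the bright probe sets that passed, and the median difference was 0.11. Eef2, the elongation factor of translation, rose by 1.39 (standard error 0.094, adjusted p = 3.90e-14 in limma), with 11116, 13797 and 16445 at the lowest, median and highest with columns and 3792, 5096 and 8355 with Trizol. Pabpc1, the poly(A)-binding protein, rose by 1.15 (adjusted p = 6.62e-12) and Nudt21, a subunit of cleavage factor I, by 0.80 (adjusted p = 7.65e-09). Tent2, the cytoplasmic poly(A) polymerase, fell by 1.47 (standard error 0.14, adjusted p = 6.22e-11).

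Of the 12 target genes, 4 rose and 3 fell with columns, a count close to the 58.7% of the bright probe sets that passed. Camk2a rose by 0.86 (adjusted p = 6.82e-10 in limma), Gria1, another AMPA receptor subunit, by 0.81 (adjusted p = 7.42e-10), Plat, a protease of the extracellular space, by 0.59 (adjusted p = 4.20e-06) and Dlg4 by 0.47 (adjusted p = 0.0207). The call of Dlg4 was lost on leaving out either of 2 single mice. Gria2, Hif1a and Map2 fell by 0.33, 0.65 and 0.24 (adjusted p = 0.000779, 7.91e-05 and 0.00659). The median difference of the targets was 0.22, against 0.023 for the bright probe sets and -0.16 for all probe sets.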

How the data were processed

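The deposited values are MAS 5.0 intensity on a linear scale, 1 value per probe set and mouse, made by the authors with Affymetrix Expression Console. MAS 5.0 does not make the distributions of the arrays alike, and how each array was scaled is not given in the sources used here. All 25 arrays were used; the 64 control probe sets were left out, which leaves 45037. Log2 signal was fitted with limma 3.58.1 in R 4.3.3 (trended prior, handling and extraction as terms), adjusted by Benjamini-Hochberg over the 45037. The handling contrast chose the members, so no p is given for them there. Members came from the platform annotation, in which 34958 probe sets name 1 gene and 9211 none, with symbols updated through their gene identifiers. Members and lists were chosen with earlier results of these data known. The named genes are the members, the listed genes that passed in the handling contrast, the 4 of each list with the smallest p in each contrast, and the 3 nearest to each member. Lists used 1 probe set per gene by highest mean signal. Correlations were tested with 100000 permutations within the 4 groups, and ratios by exact permutation over 330330 reassignments. Precision comes from the number of mice, taken as independent although handling was given to whole litters. The fits were repeated with quantile normalization, with the mean and variance of all arrays made equal, with an offset of 32, brighter probe sets, no trend, array weights, 3′ to 5′ covariates, other terms or mice, and each mouse left out. Fits without NH162, the ratio test and the shares among bright probe sets were chosen after the data were seen. The limma fit was checked on simulated data with independent normal noise, which held no extraction difference, array-wide shift, outlying array or litter. Promoter windows came from RefSeq, and the motifs searched in them were chosen after the windows of Cpeb1 and Cpeb4 had been seen. Figures were drawn with matplotlib 3.10.9.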

Additional observations from a re-analysis of the deposited data

Results flagged for a closer look

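Within the 4 groups of mice, 44 sets of values were examined on the log2 scale and 5 held a mouse set apart from the others of its group by Dixon's 95% limit, and chance alone gives this in about 1 in 20 sets. In Cpeb2 1443017_at, handled mouse H108 (columns) had 451 and the next value was 250 (gap over range 0.661). In Cpeb3 1445868_at, handled mouse H116 (columns) had 38.3 and the next was 97.9 (0.744). In Cpeb2 1458518_at, non-handled mouse NH162 (columns) had 31.2 and the next was 175 (0.641). In Cpeb3 1456048_at, NH162 had 838 and the next was 1213 (0.641). In Cpeb4 1449931_at, non-handled mouse NH138 (Trizol) had 151 and the next was 69.5 (0.888).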

How the results depend on the processing

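No paired analysis was possible because the mouse numbers are not shared between the groups. The number of CPEB probe sets that passed in the handling contrast, 3 in the reported fit, was 5 with array weights, 5 over mice with columns, 1 without the extraction term and 0 over mice with Trizol, where no probe set of the array passed (2870 at an unadjusted p under 0.05). Leaving out each mouse gave 3 to 4 for handling, 7 to 8 for extraction and 0 for the interaction. The partner list, 5 in the handling contrast, gave 3 after quantile normalization, 2 after scaling and 2 to 7 leaving out each mouse; for extraction 14 to 16. The target list, 7 in the handling contrast, gave 4, 3 and 4 to 7; for extraction 6 to 7. The ratio test gave 2 to 5 of 12 pairs leaving out each mouse, and 2 without H126, NH144, NH146 or NH147. The relation to the measures of the array, 1 of 33, gave 0 after quantile normalization and 0 without NH162. Quantile normalization and scaling moved the median of all probe sets to 0.02 and 0.03 for handling and to 0.16 and 0.16 for extraction, and turned the split of extraction calls over all probe sets, 7430 higher and 10500 lower, into 10762 and 8094 and into 10758 and 7879. Cpeb4 1420618_at did not pass for handling after quantile normalization (0.35), after scaling (0.24) or without the trend, and Cpeb3 1445868_at did not pass for extraction after quantile normalization (-0.12) or scaling (-0.26). Signs turned for Cpeb3 1455372_at (0.12 and 0.15) and Cpeb4 1449931_at (0.032 after quantile normalization) in extraction, and over handled mice alone for Cpeb3 1456048_at (0.14) and Cpeb4 1449931_at (0.65). In handling they turned for Cpeb2 1443017_at (0.019 after quantile normalization, 0.062 after scaling and 0.18 over mice with columns), for Cpeb3 1437765_at without NH165 (-0.0062), and over mice with Trizol for Cpeb2 1434272_at (-0.16), Cpeb3 1437765_at (-0.28), Cpeb3 1456048_at (-0.015) and Cpeb4 1449931_at (-0.81). They also turned for Cpsf4 (0.11 and 0.16), Fip1l1 (0.0051) and Vegfa (0.019 and 0.024) in extraction, for Tent2 (0.023), Map2 (-0.041) and Gria1 (-0.19) in handling after scaling, and for the Cpeb1 interaction with 3′ to 5′ covariates (-0.026). Leaving out 1 mouse turned the Cpeb1 interaction (-0.079 to 0.21), the extraction difference of Cpsf4 (-0.12 to 0.041) and the handling difference of Eef2 (-0.073 to 0.015). The cause was not tested.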
